A study of Mus musculus with 4 samples.

Results

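The transcripts described here are those of genes named for proteins of the mitochondrial ribosome. They were taken as the probe sets that name exactly 1 gene whose symbol is Mrpl or Mrps followed by a number and at most 1 letter, which gave 84 probe sets of 77 genes among 21044 probe sets that name 1 gene. Of these genes, 48 carry an Mrpl symbol and 29 an Mrps symbol, and 7 genes have 2 probe sets each. *Mrps36*, now known as a subunit of the 2-oxoglutarate dehydrogenase complex, was kept by this rule. Its 2 probe sets are counted as mitoribosomal unless stated otherwise. *Mrpl53* shares its only probe set with another gene and was left out. The study asked which mRNAs are held by CUGBP1, an RNA-binding protein of GU-rich sequence, in muscle cells. Cleared lysate of proliferating C2C12 (LKO-1) cells, kept under 70% confluency, was incubated either with the monoclonal CUGBP1 antibody 3B1 (CUGBP1 IP, 2 arrays) or with normal IgG (control IgG, 2 arrays). C2C12 is a line of mouse myoblasts, and both groups came from the same stable derivative carrying an empty lentiviral vector under puromycin, so the comparison describes 1 cell line in growth and no differentiated muscle.

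Mitochondria carry their own ribosomes, which translate the few mRNAs of the mitochondrial genome, all for hydrophobic subunits of the respiratory chain and the ATP synthase. The ribosomal RNAs are made inside the organelle, but every protein of this ribosome is encoded in the nucleus, made in the cytosol and imported. Part of these proteins belong to families shared with the bacterial ribosome, and part were added during the evolution of mitochondria. Skeletal muscle, with its high respiratory capacity, depends on this machinery, and human mutations in several of its genes cause disease of heart and muscle. The sequences of these mRNAs were not analysed here.

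Each value is a probe set's intensity divided by the 5th percentile of its own array, so a probe set without transcript reads about 1. Olfactory and vomeronasal receptor probe sets (1203), which myoblasts should not express, served as background, up to their 95th percentile on each array (CUGBP1 IP 1.23 and 1.29, control IgG 1.09 and 1.16). The arrays were not equally bright, since the 95th percentile of all probe sets was 9.37 and 13.0 for the CUGBP1 IP but 2.36 and 5.96 for control IgG. Replicate 2 was the brighter array of both groups. Myoblast markers were present, with *Myod1* at 18.8 and 23.2 with the CUGBP1 antibody and at 1.77 and 3.30 with control IgG, while markers of blood, epithelium, endothelium and liver (*Ptprc*, *Cd3e*, *Epcam*, *Pecam1* and *Alb*) read 1.01 to 1.35 with the CUGBP1 antibody and 1.00 to 1.14 with control IgG, with *Cd3e* above background on 1 array and the others on 0. Nothing in the sources says that the replicates are separate cultures, so p-values measure the spread between these arrays, which may be technical. Arrays of input RNA were not analysed here, so a transcript that is held more tightly cannot be told apart from one that is more abundant in the lysate.

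Mitoribosomal transcripts were detected well. With 9 exceptions among the probe sets, the mean of the CUGBP1 IP was less than 2 times that of control IgG. Of the 84 probe sets, background was passed by 81 and 84 with the CUGBP1 antibody and by 77 and 83 with control IgG. Their median intensity was 2.26 and 3.26 with the CUGBP1 antibody, against 1.28 and 2.31 with control IgG. The signal-to-negative ratio, which divides the CUGBP1 IP mean by the control IgG mean, had a median of 1.47 and ran, above 1 throughout (as for 93.3% of all probe sets), between 1.01 for a probe set of *Mrpl27* and 6.97 for *Mrpl10*. The middle part of the distribution was narrow, with quartiles at 1.31 and 1.69. Over all 21044 probe sets the median ratio was 1.22.

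The study ranked transcripts by this ratio and counted the top 5% as associated with CUGBP1. Over the probe sets tested here that share held 1053 probe sets and began at 2.57, so it is not the set the study took. *Mrpl10* and *Mrps17* were the 2 mitoribosomal probe sets in that range (2.38% of 84, against 5% of all by construction), and *Mrpl57*, at 2.54, lay just below it. limma, fitted on log2 values of the whole table with Benjamini-Hochberg adjustment over all 21044 probe sets, called 3 mitoribosomal probe sets higher in the CUGBP1 IP (3.57%, where 1.95% of all probe sets were called higher) and 0 lower (0.138% of all). The called probe sets were *Mrps17* and both of *Mrps5*, and their calls were lost without the intensity trend in the fit (limma adjusted p = 0.147 to 0.166) and with any 1 array left out. At an unadjusted p under 0.05, limma had 15 of the 84 higher (17.9%, against 28.6% of all) and 0 lower (0.584% of all). Both CUGBP1 IP arrays lay above both control IgG arrays for 39 of the 84 (46.4%, against 66.3% of all), the reverse held for 0 (0.95% of all), and the groups overlapped for the other 45. Between arrays of the same replicate number, the CUGBP1 IP read lower for 0 of the 84 in replicate 1 and for 2 in replicate 2. The share of all probe sets was not counted for this.

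**Figure D1:**
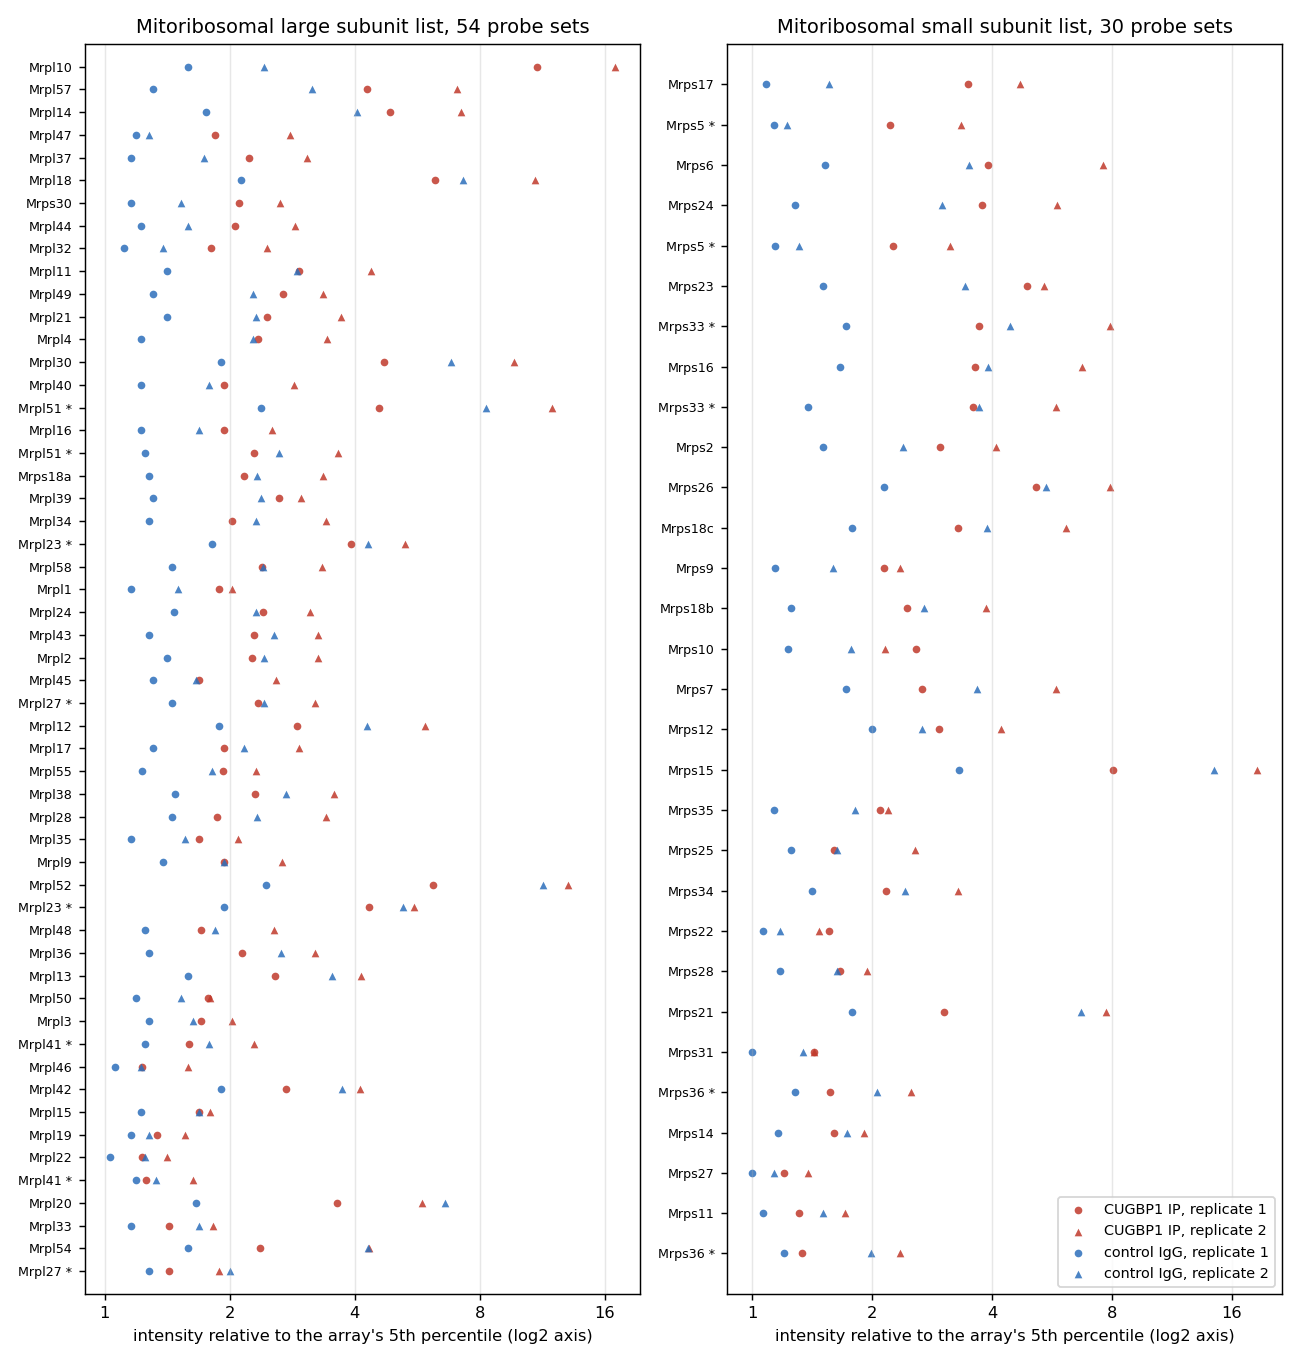
Intensities of the 84 mitoribosomal probe sets, in units of each array's 5th percentile on a log2 axis, with 1 point per array, red for the CUGBP1 IP and blue for control IgG, circles for replicate 1 and triangles for replicate 2. Rows run from the highest signal-to-negative ratio at the top to the lowest, and an asterisk marks genes with 2 probe sets. The groups lie apart for *Mrpl10*, *Mrps17* and *Mrps5* near the top, while in 43 rows control IgG replicate 2 lies above CUGBP1 IP replicate 1.

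Over the table as a whole the ratio varied with brightness, and dim probe sets near the floor of 1 had ratios close to 1. Mitoribosomal probe sets were brighter than most, and 91.7% passed background on all 4 arrays, compared with 36.7% of all probe sets. Each was therefore set against the 500 other probe sets nearest to it in mean log2 intensity over the 4 arrays. By this measure they were mostly low. Of the 84, 65 had a smaller log2 difference than the median of their 500 neighbours and 19 a larger one, and counted by the brighter probe set of each gene these were 59 and 18 genes. The median distance to the neighbours was -0.21 on the log2 scale, with quartiles at -0.37 and -0.044. A total of 31 probe sets (36.9%) lay in the lowest 10% of their own neighbours and 5 (5.95%) in the highest 10%. Among the 12700 other probe sets in the same range of brightness, treated in the same way, 50% lay below their neighbours, 9.97% in the lowest 10% and 10.1% in the highest. No test was made of this distance.

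The unmatched shift pointed the other way. The median log2 difference, CUGBP1 IP minus control IgG, was 0.60 over the mitoribosomal probe sets and 0.29 over all probe sets, so the mitoribosomal median stood 0.31 above. For that gap the SDs between arrays of the 2 groups combined to 0.53, more than the gap itself. This gap was -0.24 with quantile normalization and -0.11 among probe sets above background on all 4 arrays, whereas the brightness-matched median stayed between -0.30 and -0.09 under the other scalings, filters, neighbourhoods and arrays left out that were tried. Scaling an array by a constant cannot change that matched median. All 84 log2 differences were above 0 as deposited, 77 were with arrays scaled to their medians and 18 with quantile normalization. Among the 28 dimmest the median ratio was 1.29, with a median distance to their neighbours of -0.12, the middle 28 had 1.52 and -0.22, and the 28 brightest had 1.65 and -0.42. The ratio thus increased with brightness while the distance to equally bright probe sets became more negative. The neighbours' own median log2 difference also rose, from 0.56 to 0.86 and 1.18. In the same order, 8, 6 and 5 of the 28 probe sets lay above their neighbours.

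**Figure D2:**
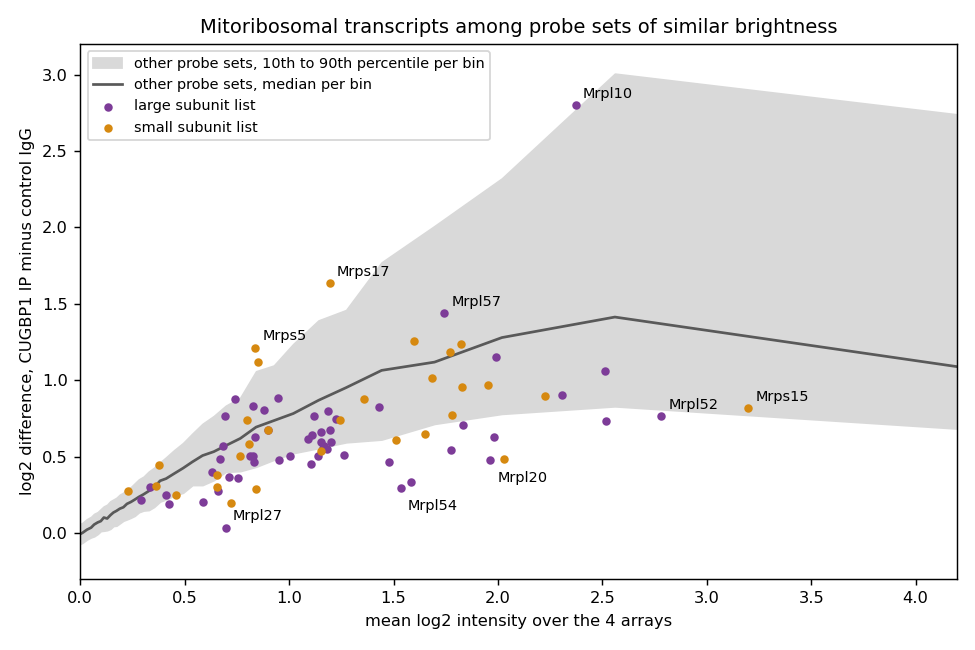
Log2 difference, CUGBP1 IP minus control IgG, against mean log2 intensity over the 4 arrays. Points are the 84 mitoribosomal probe sets (purple for the large, orange for the small subunit), the line is the median and the grey band the 10th to 90th percentile of the other tested probe sets in 40 bins of equal number. Most points lie under the line, 65 of 84 by the 500 nearest probe sets, while *Mrpl10*, *Mrps17* and *Mrps5* lie well above it.

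*Mrpl10* had by far the highest ratio of the group. It encodes the base of the stalk of the large subunit, the flexible arm that also holds copies of the *Mrpl12* product and brings translation factors to the ribosome. Its intensity was 11.0 and 16.9 with the CUGBP1 antibody, against 1.59 and 2.42 with control IgG. Both CUGBP1 IP arrays were several times above both control arrays, with a mean of 14.0 ± 4.19 for the CUGBP1 IP and 2.00 ± 0.587 for control IgG (SD, n = 2 arrays each). At a log2 difference of 2.80 (SE 0.98) it missed the threshold (limma adjusted p = 0.0824). It passed with quantile normalization (log2 1.32, limma adjusted p = 0.0138), among probe sets above background on all 4 arrays (limma adjusted p = 0.0358) and with a replicate block (limma adjusted p = 0.00572). It missed with arrays scaled to their medians (limma adjusted p = 0.0601) or to the receptor probe sets (limma adjusted p = 0.0850). It also missed with an offset of 1 (limma adjusted p = 0.0684) and without the intensity trend (limma adjusted p = 0.143). With 1 array left out its log2 difference was 2.49 to 3.11. The ratio ranked 116 among the 21044 probe sets, and 458 of the 500 neighbours in brightness had a smaller difference.

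The neighbours of this protein in the stalk had lower ratios. *Mrpl12*, the copy-bearing stalk protein, read 2.90 and 5.90 with the CUGBP1 antibody and 1.88 and 4.28 with control IgG. The groups overlapped, with CUGBP1 IP replicate 1 below control IgG replicate 2. Its ratio was 1.43 (log2 0.54, SE 0.71, limma adjusted p = 0.518), and 8 of 500 neighbours had a smaller difference. *Mrpl11*, whose bacterial relative binds the rRNA at the foot of the stalk, read 2.94 and 4.38 with the CUGBP1 antibody and 1.41 and 2.91 with control IgG. There the groups only just did not overlap, and the ratio was 1.69 (limma adjusted p = 0.256). The differences between these 3 genes were not tested.

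**Figure D3:**
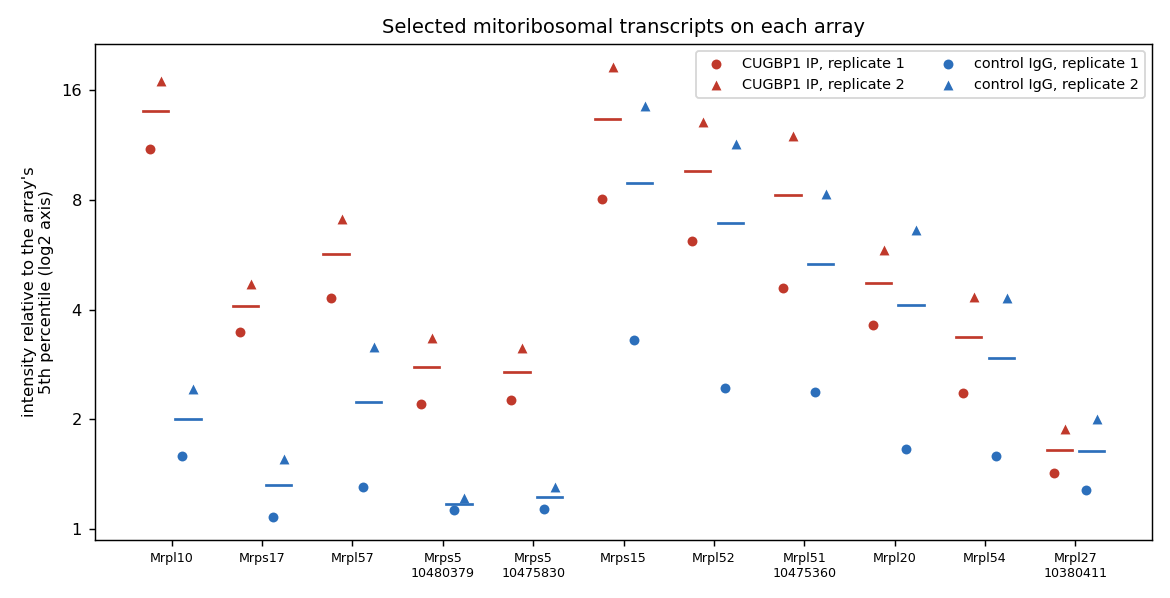
Intensities of 11 mitoribosomal probe sets on each of the 4 arrays, in units of that array's 5th percentile on a log2 axis, with red marks for the CUGBP1 IP, blue for control IgG and lines at the mean of the 2 arrays of a group. *Mrpl10*, with means of 14.0 with the CUGBP1 antibody and 2.00 with control IgG, stands beside *Mrps15* and *Mrpl52*, which were bright in the CUGBP1 IP and also on control IgG replicate 2, at 14.4 and 11.4.

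*Mrps17* and *Mrps5* rose. *Mrps17*, a protein of the body of the small subunit with a bacterial counterpart, read 3.47 and 4.69 with the CUGBP1 antibody, against 1.08 and 1.56 with control IgG. Control IgG replicate 1 was within the background range, and both CUGBP1 IP arrays were over 2 times above either control. The mean was 4.08 ± 0.863 for the CUGBP1 IP and 1.32 ± 0.339 for control IgG, 1.64 apart on the log2 scale (SE 0.47, limma adjusted p = 0.0372). Of its 500 neighbours in brightness, 478 had a smaller difference. *Mrps17* was also called with quantile normalization, at a log2 difference of 0.90 (limma adjusted p = 0.0225).

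*Mrps5* belongs to a protein family that lines the path of the mRNA into the small subunit and affects the accuracy of translation in bacteria. Probe set 10480379 read 2.21 and 3.35 with the CUGBP1 antibody and 1.13 and 1.22 with control IgG. Probe set 10475830 read 2.26 and 3.13 with the CUGBP1 antibody and 1.14 and 1.31 with control IgG. The 2 probe sets gave nearly the same values on every array, and in neither did the groups overlap. Their ratios were 2.37 and 2.20, with log2 differences of 1.21 (SE 0.34, limma adjusted p = 0.0314) and 1.12 (SE 0.34, limma adjusted p = 0.0492). With quantile normalization neither was called (limma adjusted p = 0.0827 and 0.163), and among probe sets above background on all 4 arrays the second was not (limma adjusted p = 0.0681). *Mrps5* was near the floor on both control arrays, and the first probe set averaged 2.78 ± 0.806 with the CUGBP1 antibody and 1.18 ± 0.0636 with control IgG (SD, n = 2 arrays each).

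A few more transcripts had ratios of about 2 or more with groups that did not overlap, and none of them was called. *Mrpl57*, a small mitochondria-specific protein of the large subunit, read 4.29 and 7.07 with the CUGBP1 antibody and 1.31 and 3.16 with control IgG (log2 1.44, SE 0.70, limma adjusted p = 0.160). *Mrps6*, of the platform of the small subunit, read 3.90 and 7.59 with the CUGBP1 antibody and 1.52 and 3.50 with control IgG (ratio 2.29, limma adjusted p = 0.211). *Mrps24*, the counterpart of bacterial S3 at the mRNA entry, read 3.77 and 5.82 with the CUGBP1 antibody and 1.28 and 3.00 with control IgG (ratio 2.24, limma adjusted p = 0.169). In all 3 the gap between the groups was smaller than that between the arrays of either group. *Mrps23* (ratio 2.10) and *Mrpl14* (2.08), a protein at the contact between the subunits, followed, with limma adjusted p-values of 0.214 and 0.267. *Mrps33*, of the small subunit and without a bacterial relative, came next at probe set 10563829, but there the arrays overlapped, reading 3.71 and 7.91 with the CUGBP1 antibody and 1.72 and 4.44 with control IgG (ratio 1.89, limma adjusted p = 0.324). Set against their neighbours, *Mrps6*, *Mrps23* and *Mrpl14* were ordinary, with 264, 267 and 204 of 500 neighbours below them.

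By that measure 2 dimmer transcripts, picked after their values were seen, ranked higher, although 8 of the 28 dimmest probe sets lay above their neighbours. *Mrps22* and *Mrps27*, near background, also ranked high, with 433 and 429 of 500 neighbours below them. *Mrpl47*, the counterpart of bacterial L29, read 1.84 and 2.79 with the CUGBP1 antibody and 1.19 and 1.28 with control IgG, with 455 of 500 neighbours below it (ratio 1.87, limma adjusted p = 0.0832). *Mrpl32*, which is matured by the mitochondrial AAA protease before it joins the ribosome, read 1.80 and 2.46 with the CUGBP1 antibody and 1.11 and 1.38 with control IgG, with 424 neighbours below it (ratio 1.71, limma adjusted p = 0.103). *Mrpl47* and *Mrpl32* had groups that did not overlap, as had 66.3% of all probe sets with the CUGBP1 IP above. Both were called with arrays scaled to their medians, where limma called 1477 of all 21044 probe sets higher and 5 of the 84 mitoribosomal ones.

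Of the 5 brightest mitoribosomal probe sets, all but *Mrpl10* had strong signal on control IgG replicate 2 as well. *Mrps15*, a protein that in bacteria binds the rRNA early in assembly, was the brightest of the group by its mean. It read 8.03 and 18.5 with the CUGBP1 antibody and 3.31 and 14.4 with control IgG. *Mrpl52* read 6.17 and 13.0 with the CUGBP1 antibody and 2.44 and 11.4 with control IgG. *Mrpl18*, the counterpart of the bacterial protein that carries 5S rRNA, read 6.23 and 10.9 with the CUGBP1 antibody and 2.13 and 7.31 with control IgG. In each of them CUGBP1 IP replicate 1 fell between the 2 control arrays. Their ratios were 1.50, 1.39 and 1.81, and limma adjusted p-values were 0.581, 0.566 and 0.397.

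Such ratios rested on which control array was used. Against control IgG replicate 1 alone *Mrps15* had 4.01, and against control IgG replicate 2 alone it had 0.920. *Mrpl52* had 3.93 and 0.844. Across the 84 probe sets the median ratio was 2.00 against control IgG replicate 1 and 1.17 against control IgG replicate 2. All 84 had a ratio above 1 against the first (94.6% of all probe sets did) and 71 against the second (86.6% of all). Control IgG replicate 2 was the brighter control for all 84, by a median factor of 1.62, and CUGBP1 IP replicate 2 was the brighter immunoprecipitate for 81, by a median factor of 1.46. *Mrpl10* had 8.78 and 5.77, and *Mrps5* had 2.46 and 2.28 at probe set 10480379, so that these were well above 1 against either control. *Mrps17* had 2.61 against control IgG replicate 2 and was in background on control IgG replicate 1.

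**Figure D4:**
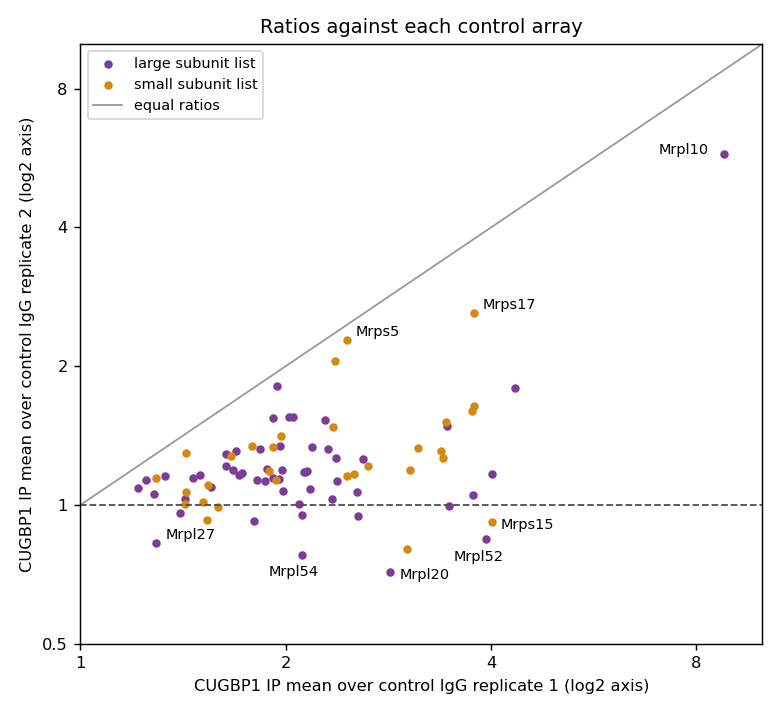
Ratio of the CUGBP1 IP mean to control IgG replicate 1 (x axis) and to control IgG replicate 2 (y axis) for the 84 mitoribosomal probe sets, both on log2 axes. The solid line marks equal ratios and the dashed line a ratio of 1 against replicate 2. Every point lies under the solid line and 13 lie under the dashed line, among them *Mrps15* (0.920) and *Mrpl52* (0.844), while *Mrpl10* (5.77) and *Mrps17* (2.61) stay high.

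At the low end the immunoprecipitates were nearly equal. Probe set 10380411 of *Mrpl27*, whose product reaches the peptidyl transferase centre in bacteria, read 1.43 and 1.88 with the CUGBP1 antibody and 1.28 and 2.00 with control IgG. Its ratio was 1.01 (log2 0.035, SE 0.29, limma adjusted p = 0.924), and 0 of its 500 neighbours had a smaller difference. *Mrpl54* read 2.37 and 4.34 with the CUGBP1 antibody and 1.59 and 4.30 with control IgG (ratio 1.14, limma adjusted p = 0.679). *Mrpl20*, a protein needed for assembly of the large subunit in bacteria, read 3.63 and 5.82 with the CUGBP1 antibody and 1.66 and 6.59 with control IgG (ratio 1.15, limma adjusted p = 0.612). The groups overlapped in all 3, and for *Mrpl54* and *Mrpl20* 1 and 4 of 500 neighbours had a smaller difference. *Mrpl33* (ratio 1.14) and the dimmer probe sets of *Mrpl41* (1.15) and *Mrps36* (1.16) completed the 6 lowest ratios among probe sets above background on all arrays. *Mrps27*, reading 1.20 and 1.38 with the CUGBP1 antibody and 1.00 and 1.13 with control IgG, passed background on CUGBP1 IP replicate 2 only, so no fold is given for it. *Mrps36*, despite its symbol, is now known as a subunit of the 2-oxoglutarate dehydrogenase complex. With quantile normalization limma called 2 of the 84 lower, where 0.0855% of all probe sets were called lower, and had 32 (38.1%, against 6.46% of all) lower at an unadjusted p under 0.05. The called ones were those of *Mrpl42* and *Mrpl27* (10380411), the second at a log2 difference of -0.64 (limma adjusted p = 0.0359).

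For 4 genes whose human counterparts are mutated in mitochondrial disease, picked after their values were seen, ratios lay between 1.29 and 1.86, and none was called. No full list of such genes was made, so this range describes only these 4. *Mrpl44*, a large subunit protein related to RNase III whose mutation causes cardiomyopathy, read 2.06 and 2.88 with the CUGBP1 antibody and 1.22 and 1.59 with control IgG (ratio 1.76, limma adjusted p = 0.138). *Mrpl3*, another gene of cardiomyopathy, read 1.71 and 2.03 with the CUGBP1 antibody and 1.28 and 1.63 with control IgG (ratio 1.29, limma adjusted p = 0.322). The groups did not overlap in either, but 319 of 500 neighbours had a smaller difference than *Mrpl44* and 34 a smaller one than *Mrpl3*. *Mrps16*, the first mitoribosomal gene linked to such disease in humans, read 3.63 and 6.74 with the CUGBP1 antibody and 1.66 and 3.91 with control IgG (ratio 1.86, limma adjusted p = 0.302), with overlap between the groups. *Mrps22*, a mitochondria-specific protein of the small subunit, was near background at 1.56 and 1.47 with the CUGBP1 antibody and 1.06 and 1.17 with control IgG (ratio 1.36, limma adjusted p = 0.138).

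Another 3 small subunit proteins with bacterial relatives, picked after their values were seen, had clear signal on both control arrays and were not called. *Mrps12*, whose bacterial relative monitors decoding in the ribosomal A site, read 2.94 and 4.21 with the CUGBP1 antibody and 2.00 and 2.66 with control IgG (ratio 1.53, limma adjusted p = 0.397). *Mrps7*, which in bacteria starts assembly of the head of the small subunit, read 2.66 and 5.79 with the CUGBP1 antibody and 1.72 and 3.66 with control IgG (ratio 1.57, limma adjusted p = 0.415). *Mrps21* read 3.03 and 7.71 with the CUGBP1 antibody and 1.78 and 6.69 with control IgG (ratio 1.27, limma adjusted p = 0.617). Of their 500 neighbours, 36, 36 and 3 had a smaller difference, so all 3 were low for their brightness. They do not stand for their list, in which 6 of 18 probe sets lay above their neighbours. The groups overlapped for *Mrps7* and *Mrps21* and did not for *Mrps12*.

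Genes with 2 probe sets gave a view of how well the ratios repeat within an array. The platform annotation gives no reason for the second probe set and does not say whether it also reads a processed copy of the gene. The paired ratios were 2.37 and 2.20 for *Mrps5*, 1.89 and 1.85 for *Mrps33*, 1.55 and 1.53 for *Mrpl51*, 1.50 and 1.38 for *Mrpl23*, 1.28 and 1.15 for *Mrpl41*, and 1.22 and 1.16 for *Mrps36*. *Mrpl27* differed most, with 1.43 at probe set 10454093 and 1.01 at probe set 10380411. For *Mrpl51* the ratios were alike although 1 probe set was much brighter, at 4.57 and 11.9 with the CUGBP1 antibody and 2.38 and 8.28 with control IgG, while the other read 2.29 and 3.65 with the CUGBP1 antibody and 1.25 and 2.63 with control IgG.

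The 3 genes related to bacterial S18 had similar ratios. Their products do not replace each other at 1 place, since that of *Mrps18a* sits in the large subunit and those of *Mrps18b* and *Mrps18c* in the small subunit. *Mrps18c* read 3.29 and 6.12 with the CUGBP1 antibody and 1.78 and 3.88 with control IgG. *Mrps18b* read 2.44 and 3.85 with the CUGBP1 antibody and 1.25 and 2.69 with control IgG. *Mrps18a* read 2.16 and 3.35 with the CUGBP1 antibody and 1.28 and 2.33 with control IgG. In each, CUGBP1 IP replicate 1 was below control IgG replicate 2, the ratios were 1.66, 1.60 and 1.53, and limma adjusted p-values were 0.374, 0.242 and 0.254.

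Grouped by role, the large subunit had 54 probe sets of 50 genes, counting *Mrps30* and *Mrps18a*, which are large subunit proteins despite their symbols. Their median ratio was 1.44, with 0 called, 8 of 54 higher at an unadjusted p under 0.05, and 9 above their neighbours in brightness. Over all tested probe sets 1.95% were called higher by limma and 28.6% were higher at an unadjusted p under 0.05. The small subunit had 28 probe sets of 26 genes without *Mrps36*, a median ratio of 1.58, 3 called and 10 above their neighbours, and the 2 probe sets of *Mrps36* were both below theirs. Families shared with bacteria had a median distance to the neighbours of -0.27 in the large and -0.16 in the small subunit, and mitochondria-specific proteins -0.21 and -0.10, the last with *Mrps36* kept in the list. Each of these medians was below 0, and the differences among them were not tested. The 4 measured mitoribosomal genes with other symbols, *Chchd1*, *Gadd45gip1*, *Ptcd3* and *Dap3*, had ratios of 1.50, 1.31, 1.28 and 1.18, and limma called 0 of them, with 1 at an unadjusted p under 0.05.

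Factors that work with the mitochondrial ribosome were mostly dimmer. Of 13 probe sets of 12 translation factors limma called 0, with 2 higher at an unadjusted p under 0.05, as were 28.6% of all probe sets. *Oxa1l*, the insertase that takes new proteins into the inner membrane, was at the lower limit of the top 5% used here, reading 4.89 and 6.01 with the CUGBP1 antibody and 1.44 and 2.80 with control IgG (ratio 2.57, limma adjusted p = 0.158). *Mrrf*, which recycles ribosomes after termination, read 4.17 and 3.62 with the CUGBP1 antibody and 1.41 and 2.31 with control IgG (ratio 2.09, limma adjusted p = 0.166). In both the groups did not overlap. Of 27 assembly and rRNA modification genes limma called 1 higher, *Gtpbp10*, where 1.95% of all probe sets were called higher. This GTPase, which acts late in the assembly of the large subunit, read 2.17 and 2.97 with the CUGBP1 antibody and 1.03 and 1.16 with control IgG (log2 1.22, SE 0.30, limma adjusted p = 0.0189). Both control values were within the background range, so that the difference is at least 2.26-fold. The call of *Gtpbp10* was lost without the intensity trend in the fit and with any 1 array left out. The median distance to the neighbours was -0.065 for the translation factors and -0.0034 for the assembly genes, with 3 of 13 and 13 of 27 probe sets above 0.

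Other large complexes of ribosomes and mitochondria were also low against their neighbours in brightness, from which only mitoribosomal probe sets had been left out. The neighbours of these lists could thus include other probe sets of the same list. The 38 probe sets of respiratory complex I subunits had a median ratio of 1.53 and a median distance to their neighbours of -0.37, with 6 above 0 and 0 called, 3 of them being higher at an unadjusted p under 0.05. Over all tested probe sets 1.95% were called higher by limma and 28.6% were higher at that unadjusted level. The 210 probe sets of cytosolic ribosomal proteins had a median ratio of 1.49 and a median distance of -0.28, with 15 above 0 and 0 called, 4 being higher at an unadjusted p under 0.05. These were far brighter than the mitoribosomal probe sets, with a median of 42.1 over the 4 arrays against 2.32 for the mitoribosomal ones, and these genes are known for many processed copies in the genome. With these limits, a median below that of the neighbours was not seen for the mitoribosomal group alone, and no test of a difference between the groups was made.

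**Figure D5:**
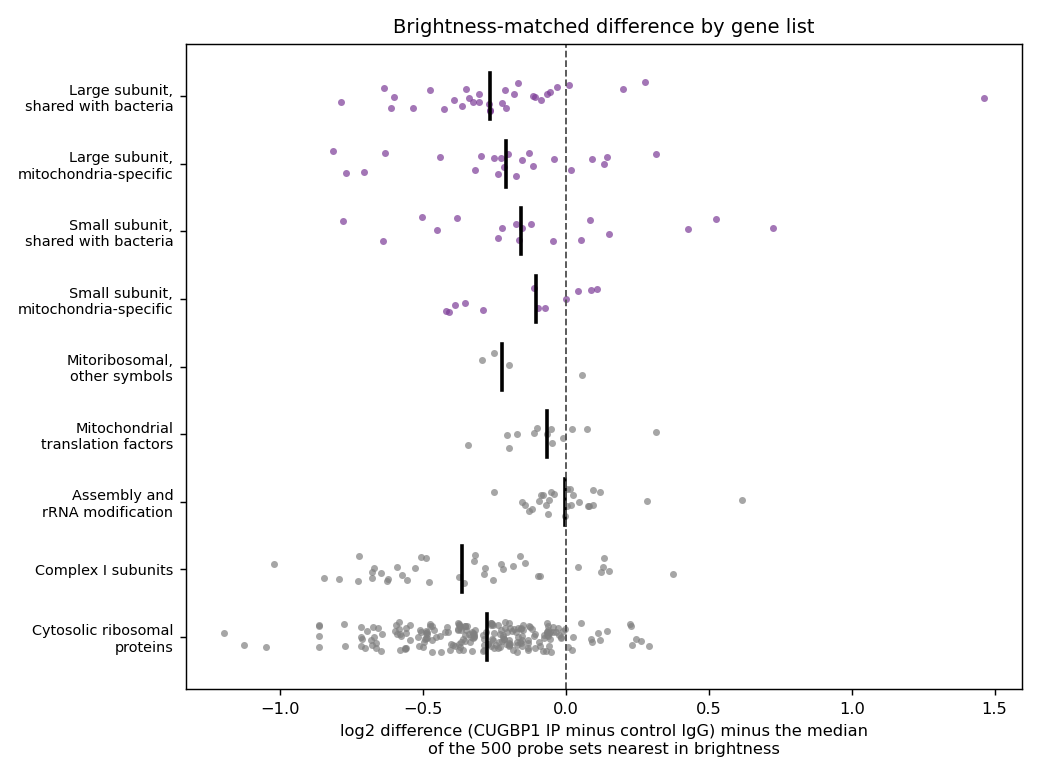
Log2 difference, CUGBP1 IP minus control IgG, of each probe set minus the median of the 500 probe sets nearest in brightness, by gene list, with the 84 mitoribosomal probe sets in purple and other lists in grey. Black bars are list medians, which run from -0.27 to -0.10 in the mitoribosomal lists, against -0.37 for complex I subunits and -0.28 for cytosolic ribosomal proteins. *Mrpl10* is the single point at 1.46.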

How the data were processed

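RNA of 2 CUGBP1 IP and 2 control IgG immunoprecipitates was hybridized by the authors to Affymetrix Mouse Gene 1.0 ST arrays, 1 array each. The deposited values are linear intensities, which the authors divided by the 5th percentile of all probe sets of the same array. For the summary of probes, any subtraction of background and the genome build, nothing was given in the sources used here. Probe sets were named through a platform annotation, with symbols updated by gene identifier for 20959 of 21044 probe sets in a RefSeq table (GRCm38.p6, names only). Samples were grouped by their titles. Log2 values were fitted with limma 3.58.1 in R 4.3.3 (lmFit, eBayes with an intensity trend, two-sided, Benjamini-Hochberg over 21044 probe sets, threshold 0.05), and the fit was tested on simulated data. The moderated SE follows that trend, so a probe set's own spread had little weight. The 2 arrays per group limit precision.

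The members, gene lists and tests were chosen with earlier results of these data known. Probe sets described singly were all called ones, the 10 highest and 6 lowest ratios (the lowest among those above background on all 4 arrays), the 5 brightest, genes with 2 probe sets and the *Mrps18* genes, with called genes of the other lists. *Mrpl3*, *Mrpl11*, *Mrpl12*, *Mrpl32*, *Mrpl42*, *Mrpl44*, *Mrpl47*, *Mrps7*, *Mrps12*, *Mrps16*, *Mrps21*, *Mrps22*, *Mrps27*, *Oxa1l*, *Mrrf* and the mitoribosomal genes with other symbols were added after their values were seen. Alternatives were other scalings, an offset of 1, a background filter, no trend, a replicate block, an array left out, other neighbourhoods of brightness (200 or 1000 probe sets, or control IgG alone), 1 probe set per gene, and the platform's own symbols.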

Additional observations from a re-analysis of the deposited data

How the results depend on the processing

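The brightness-matched median of the mitoribosomal probe sets kept its direction under every alternative run for it, and lay between -0.30 (without CUGBP1 IP replicate 2) and -0.09 (without control IgG replicate 2), where 60 of 84 probe sets were below their neighbours. Scaling arrays to their medians or to receptor probe sets could not change it, since all log2 values of an array shift alike. With the platform's own symbols it was also unchanged, again over 84 probe sets. The unmatched median relative to all probe sets, 0.31, was -0.24 with quantile normalization and -0.11 among probe sets above background on all 4 arrays, and 0.028 to 0.60 with an array left out. Called higher were 5 mitoribosomal probe sets with arrays scaled to their medians, 0 without the intensity trend (12 at an unadjusted p under 0.05) and 0 with any array left out (1 to 34 at an unadjusted p under 0.05), where 1 residual degree of freedom remains and the lone array is assumed to vary like the other group. Called lower were 2 with quantile normalization, against 0. In the top 5% were 4 with quantile normalization, 1 among probe sets above background on all 4 arrays, and 2 to 4 with an array left out. Groups did not overlap, with the CUGBP1 IP above, for 26 with arrays scaled to their medians (31.8% of all probe sets), for 9 with quantile normalization (19.4% of all), and for 39 to 84 with an array left out (68.3% to 89.0% of all). Over the whole table limma called 440, but 1528 with arrays scaled to their medians, 801 with an offset of 1, 270 above background, and 0 without the trend (4757 at an unadjusted p under 0.05) or with any array left out (1062 to 6085 at an unadjusted p under 0.05). The median of all log2 differences was 0.29, against 0.015 with arrays scaled to their medians and -0.016 with quantile normalization. The causes of these changes were not tested.

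Both groups carry replicate numbers 1 and 2, and nothing says that a number marks a shared lysate. The deviations of replicate 1 from replicate 2 correlated across probe sets between the groups (r = 0.639, over 21044 probe sets, which are not independent). With the replicate number as a block limma called 11849 of the 21044 probe sets, 11809 of them higher and 40 lower. Of the 84 mitoribosomal probe sets it called 53 higher and 0 lower. That fit has 1 residual degree of freedom.

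Of the probe sets chosen by rule for single description, those whose log2 difference turned below 0 are given here. In the main fit and in the settings where they turned, none was called except *Mrpl27* 10380411 with quantile normalization. Some of them, such as *Mrps6* (limma adjusted p = 0.0201), were called higher with the replicate block. Genes added later were not traced through each alternative, and of these *Mrpl42* also turned below 0 and was called with quantile normalization. With quantile normalization they were -0.017 for *Mrps6*, -0.020 for *Mrps23*, -0.22 for *Mrpl14*, -0.36 and -0.11 for *Mrps33*, -0.44 for *Mrpl18*, -0.53, -0.16 and -0.24 for *Mrps18c*, *Mrps18b* and *Mrps18a*, -0.78 and -0.21 for *Mrpl51*, -0.61 and -0.71 for *Mrpl23*, -0.77 for *Mrps15*, -0.78 for *Mrpl52*, -0.45 and -0.64 for *Mrpl27*, -0.35 and -0.31 for *Mrpl41*, -0.48 and -0.45 for *Mrps36*, -0.78 for *Mrpl20*, -0.32 for *Mrpl33* and -0.83 for *Mrpl54*. With arrays scaled to their medians they were -0.076 for *Mrps36* 10566514, -0.086 for *Mrpl41* 10480579, -0.069 for *Mrpl33* and -0.24 for *Mrpl27* 10380411. With 1 array left out, log2 differences ran from -0.16 to 1.63 for *Mrpl51* 10475360, from -0.24 to 1.88 for *Mrps15*, from -0.34 to 1.88 for *Mrpl52*, from -0.088 to 1.34 for *Mrpl23* 10559233, from -0.056 to 0.63 and from -0.21 to 0.61 for *Mrps36*, from -0.52 to 1.47 for *Mrpl20*, from -0.067 to 0.48 for *Mrpl33*, from -0.42 to 1.01 for *Mrpl54* and from -0.29 to 0.36 for *Mrpl27* 10380411. All of these were below 0 without control IgG replicate 1, and those of *Mrps36*, *Mrpl54* and *Mrpl27* also without CUGBP1 IP replicate 2.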
